A study of Mus musculus with 4 samples.

Results

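The genes described here are 9 genes of renal phosphate transport and Klotho signalling, chosen by name: the sodium-phosphate cotransporter genes Slc34a1, Slc34a2, Slc34a3, Slc20a1 and Slc20a2, the co-receptor gene Kl with the receptor gene Fgfr1, the parathyroid hormone receptor gene Pth1r and the scaffold gene Slc9a3r1. They had 17 of the 45101 probe sets on the array and were 9 of 18193 genes that could be named. Kidney RNA was measured on 4 arrays of 1 sample each, and the groups were OVE-uni, OVE-sham, FVB-uni and FVB-sham. OVE-uni mice were OVE26 transgenic diabetic mice with 1 kidney removed, and OVE-sham mice were OVE26 transgenic diabetic mice after a sham operation. FVB-uni mice were nondiabetic littermate control mice with 1 kidney removed, and FVB-sham mice were nondiabetic littermate control mice after a sham operation. All were female on the FVB/NJ background, were operated on at 2 months of age and were killed at 4.5 months, 10 weeks after surgery. OVE26 mice carry a calmodulin transgene driven in the beta cells of the pancreas, and diabetes follows from the loss of these cells. Each array held RNA pooled from 4 mice, so no value or p below measures the spread between animals.

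Most filtered phosphate is taken back in the proximal tubule by the type II cotransporters that Slc34a1 and Slc34a3 encode, which sit in the brush border and are held there by the scaffold that Slc9a3r1 encodes. Parathyroid hormone, through the receptor that Pth1r encodes, and the bone hormone FGF23, through Fgfr1 together with Klotho, both lower the amount of these transporters in the membrane. Klotho, encoded by Kl, is made mainly in the distal convoluted tubule and also in the proximal tubule, and it lets FGF23 bind the receptor. The type III cotransporter genes Slc20a1 and Slc20a2 are expressed in nearly all cells.

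The sequence upstream of 4 members is shown because these genes differ in the direction of their values below: Slc34a1, Slc34a3 and Kl were lowest on the OVE-uni array and Slc20a1 was highest there. Each is the stretch before the annotated start of the gene, 5′ to 3′, from RefSeq on build GRCm38.p6, and capitals mark the motifs that were searched.
Slc34a1, chr13:55399398-55399621, plus strand: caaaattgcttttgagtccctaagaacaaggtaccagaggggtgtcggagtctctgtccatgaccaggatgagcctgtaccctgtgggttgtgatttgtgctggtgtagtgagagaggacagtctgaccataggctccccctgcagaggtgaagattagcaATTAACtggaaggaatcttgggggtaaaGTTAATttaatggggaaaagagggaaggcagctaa
Slc34a3, chr2:25234271-25234484, minus strand: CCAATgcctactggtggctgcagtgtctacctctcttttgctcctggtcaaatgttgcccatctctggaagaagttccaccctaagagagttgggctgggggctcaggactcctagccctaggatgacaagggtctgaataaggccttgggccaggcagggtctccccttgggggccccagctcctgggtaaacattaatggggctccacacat
Kl, chr5:150952357-150952606, plus strand: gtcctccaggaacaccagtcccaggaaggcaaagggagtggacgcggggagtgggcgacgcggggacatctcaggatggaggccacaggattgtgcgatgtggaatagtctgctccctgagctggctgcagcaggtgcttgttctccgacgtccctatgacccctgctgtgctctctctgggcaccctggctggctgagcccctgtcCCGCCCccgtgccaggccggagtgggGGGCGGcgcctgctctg
Slc20a1, chr2:129198523-129198772, plus strand: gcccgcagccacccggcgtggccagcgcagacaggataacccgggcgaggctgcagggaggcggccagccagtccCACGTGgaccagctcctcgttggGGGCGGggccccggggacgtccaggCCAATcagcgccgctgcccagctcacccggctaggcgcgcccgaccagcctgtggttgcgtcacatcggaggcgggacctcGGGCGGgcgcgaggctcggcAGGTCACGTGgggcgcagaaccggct
Of the 9 members, 7 had such a window, and Fgfr1 and Slc20a2 had none in the table used. The 7 motifs, searched on both strands, were the TATA box TATAAA, the E-box CACGTG, the CCAAT box, the GC box GGGCGG, the nuclear receptor core AGGTCA, the HNF1 core GTTAAT and the cAMP response element TGACGTCA. Upstream of Slc34a1 there were 2 copies of GTTAAT, a motif present at least once in 6.43% of all 32851 windows, each taken as 250 bases before the start. The windows printed for Slc34a1 and Slc34a3 are shorter (224 and 214 bases), because the annotated gene begins further upstream than the start used for the window. Upstream of Slc20a1 there were 2 copies of CACGTG, held by 6.02% of windows, and 1 copy of AGGTCA, held by 14%, which overlaps the second CACGTG. The GC box, found in 32.7% of windows, was present in 2 copies each for Slc20a1 and Kl, and CCAAT, found in 33.8%, in 1 copy each for Slc20a1 and Slc34a3. TATAAA, found in 12.4% of windows, and TGACGTCA, found in 1.55%, were not among the letters of these 4 stretches. A match is a description of the letters and no evidence of a binding site.

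Signals are linear array intensities scaled by the authors to a common level, and differences are on the log2(signal + 26.4) scale, which makes the differences of dim probe sets smaller than the ratio of their signals. A gene counted as expressed when its brightest probe set reached a mean log2 level of 7.06, which 11206 genes did, all 9 members among them. Of the 17 probe sets of the members, 15 reached that level. A signal cannot be compared between probe sets, so no order between genes is given. With 1 array in each group, a difference between 2 arrays has no replicate check. The mean difference over both arms of a factor was tested with limma, whose spread for a gene rests nearly entirely on other genes (57.9 prior against 1 residual degree of freedom). In bulk kidney, fewer cells of a type and less RNA per cell cannot be told apart.

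Slc34a1 (chr13:55399622-55414695, build GRCm38.p6 here and below) encodes NaPi-IIa, the main phosphate transporter of the mouse proximal tubule. Its 1 probe set had a signal of 11213 in OVE-uni, 17136 in OVE-sham, 16823 in FVB-uni and 13935 in FVB-sham mice. OVE-uni was the lowest array, while OVE-sham and FVB-uni lay close together above FVB-sham. With diabetes the log2 difference was -0.58 in uninephrectomised mice and 0.30 in sham mice, so its sign differed between the arms. With uninephrectomy it was -0.61 in diabetic mice and 0.27 in nondiabetic mice. Averaged over the arms, neither diabetes (-0.14 ± 0.19, SE, limma adjusted p = 0.967) nor uninephrectomy (-0.17 ± 0.19, SE, limma adjusted p = 0.9997) passed the threshold of 0.05. The 95% interval for diabetes ran from -0.52 to 0.24.

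Slc34a3 (chr2:25228897-25234270) encodes NaPi-IIc, the other type II transporter of the brush border. Its signal was 1874 in OVE-uni, 2640 in OVE-sham, 2581 in FVB-uni and 2673 in FVB-sham mice. The last 3 arrays lay within a narrow band and OVE-uni lay below them. The log2 difference with diabetes was -0.46 in uninephrectomised and -0.02 in sham mice, and that with uninephrectomy was -0.49 in diabetic and -0.05 in nondiabetic mice. The mean differences of -0.24 ± 0.15 for diabetes (SE, limma adjusted p = 0.762) and -0.27 ± 0.15 for uninephrectomy (SE, limma adjusted p = 0.9997) did not pass.

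Slc34a2 (chr5:53049353-53071664) encodes NaPi-IIb, the phosphate transporter known from intestine and lung. It had a dim probe set, with signals of 382 in OVE-uni, 223 in OVE-sham, 300.4 in FVB-uni and 210 in FVB-sham mice. Both uninephrectomy arrays were above both sham arrays. The log2 difference with uninephrectomy was 0.71 in diabetic and 0.47 in nondiabetic mice, where Slc34a3 had -0.49 and only -0.05. The mean of 0.59 ± 0.27 (SE) for Slc34a2 had an unadjusted limma p of 0.0318 and an adjusted p of 0.737, so it did not pass over all 11206 genes. With diabetes the differences were 0.32 in uninephrectomised and 0.08 in sham mice, with a mean of 0.20 ± 0.27 (SE, limma adjusted p = 0.967).

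Slc20a1 (chr2:129198773-129211615) encodes PiT-1, a phosphate transporter of the type III family. Its brightest probe set had signals of 2197 in OVE-uni, 1738 in OVE-sham, 1326 in FVB-uni and 1384 in FVB-sham mice. A further probe set had signals of 434 in OVE-uni, 447 in OVE-sham, 269 in FVB-uni and 284 in FVB-sham mice. On both probe sets the 2 diabetic arrays lay above the 2 nondiabetic arrays without overlap. Both probe sets were read from the same arrays, so they do not check each other. The share of expressed genes with such a split of the arrays was not counted, here or for other genes described in this way. With diabetes the log2 difference of the brightest probe set was 0.72 in uninephrectomised and 0.32 in sham mice, and that of the further probe set was 0.64 and 0.61. The mean of 0.52 ± 0.16 (SE), a 1.43-fold difference with a 95% interval of 0.20 to 0.84 on the log2 scale, ranked 284 of 11206 genes by p and had a limma adjusted p of 0.0736. It did not pass at 0.05, although it did so when only brighter genes were tested (6957 genes, limma adjusted p = 0.0401). Over 10 alternative settings the limma adjusted p ran from 0.0401 to 0.575. With uninephrectomy the mean was 0.14 ± 0.16 (SE, limma adjusted p = 0.9997). The third probe set, with signals between 14.5 and 52, lay below the expression level. The signal of 3 18S ribosomal RNA control probe sets, relative to FVB-sham, was 1.88 in OVE-uni, 1.32 in OVE-sham and 1.02 in FVB-uni mice, also higher on both diabetic arrays, and its part in the values of Slc20a1 was not tested.

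Slc20a2 (chr8:22476700-22569616) encodes PiT-2, the other type III transporter. The brighter of its 2 probe sets had signals of 808 in OVE-uni, 1109 in OVE-sham, 907 in FVB-uni and 926 in FVB-sham mice. The other had 393 in OVE-uni, 416 in OVE-sham, 577 in FVB-uni and 455 in FVB-sham mice. OVE-uni was lowest on both, but the order of the remaining arrays differed. With diabetes in sham mice the brighter probe set was higher by 0.25 on the log2 scale, whereas the other had a difference of -0.12. The limma mean for the brighter probe set was 0.05 ± 0.18 (SE, adjusted p = 0.997) with diabetes and -0.24 ± 0.18 (SE, adjusted p = 0.9997) with uninephrectomy.

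**Figure D1:**
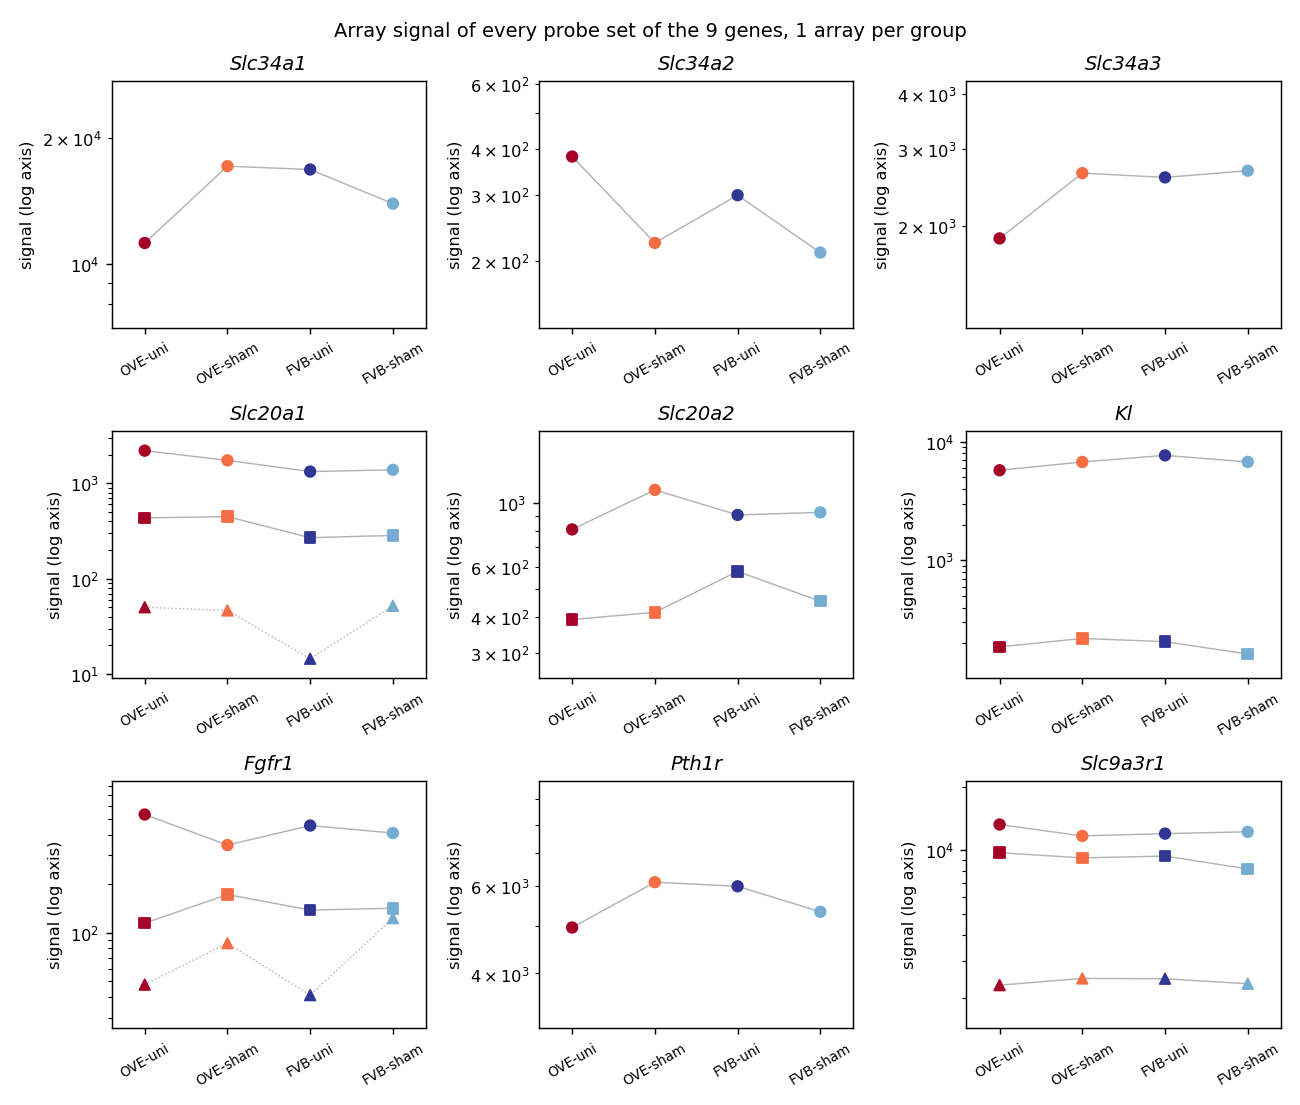
Array signal (log axis) of each of the 17 probe sets of the 9 genes, with 1 array per group and a thin line joining the points of 1 probe set; marker shape separates the probe sets of a gene and dotted lines mark the 2 probe sets below the expression level. Slc34a1 and Slc34a3 have their lowest point at OVE-uni, and the 2 brighter Slc20a1 probe sets lie higher on both diabetic arrays.

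Kl (chr5:150952607-150993817) encodes Klotho, the co-receptor for FGF23. Its bright probe set had signals of 5751 in OVE-uni, 6753 in OVE-sham, 7675 in FVB-uni and 6761 in FVB-sham mice. The 2 sham arrays were nearly equal, with OVE-uni below and FVB-uni above them. The log2 difference with diabetes was -0.41 in uninephrectomised mice and -0.0016 in sham mice, and that with uninephrectomy was -0.23 in diabetic and 0.18 in nondiabetic mice. With diabetes its mean difference was -0.21 ± 0.16 (SE, limma adjusted p = 0.848) and had a 95% interval of -0.53 to 0.11. A dim probe set of Kl, with 186 in OVE-uni, 220 in OVE-sham, 206 in FVB-uni and 162 in FVB-sham mice, had a difference of -0.13 with diabetes in uninephrectomised and of 0.38 in sham mice. With diabetes the probe sets thus shared their sign in uninephrectomised mice and not in sham mice, and with uninephrectomy they shared it in both arms.

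Fgfr1 (chr8:25518759-25575718) encodes the receptor that forms the FGF23 receptor complex with Klotho. Its brightest probe set had signals of 532 in OVE-uni, 345 in OVE-sham, 455 in FVB-uni and 409 in FVB-sham mice. Another probe set had 114 in OVE-uni, 171 in OVE-sham, 137 in FVB-uni and 141 in FVB-sham mice. These probe sets disagreed: with uninephrectomy in diabetic mice the first differed by 0.59 and the second by -0.49 on the log2 scale. The brightest probe set had a limma mean of -0.01 ± 0.23 with diabetes (SE, adjusted p = 0.997) and 0.37 ± 0.23 with uninephrectomy (SE, adjusted p = 0.9997). The third probe set lay below the expression level, with 47.8 in OVE-uni, 86 in OVE-sham, 41.2 in FVB-uni and 123 in FVB-sham mice.

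Pth1r (chr9:110722085-110747145), the parathyroid hormone receptor gene, followed the order of arrays of Slc34a1 with smaller differences. Its signal was 4956 in OVE-uni, 6120 in OVE-sham, 6004 in FVB-uni and 5332 in FVB-sham mice. The log2 difference with diabetes was -0.28 in uninephrectomised and 0.20 in sham mice. Its limma mean was -0.04 ± 0.16 with diabetes (SE, adjusted p = 0.997) and -0.07 ± 0.16 with uninephrectomy (SE, adjusted p = 0.9997).

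Slc9a3r1 (chr11:115163341-115181178) encodes NHERF1, the scaffold that anchors NaPi-IIa at the brush border, and its brightest probe set varied less over the arrays than that of any other member. Its brightest probe set had signals of 13257 in OVE-uni, 11711 in OVE-sham, 12007 in FVB-uni and 12247 in FVB-sham mice, a span of 0.18 on the log2 scale. A second probe set had 9758 in OVE-uni, 9222 in OVE-sham, 9407 in FVB-uni and 8177 in FVB-sham mice. The third spanned 0.10 and was lowest, not highest, in OVE-uni mice, with signals between 2311 and 2486. With diabetes the limma mean was 0.04 ± 0.18 (SE, adjusted p = 0.997), with a 95% interval of -0.31 to 0.39. This interval rests nearly entirely on the spread of other genes, so it cannot exclude a larger change.

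**Figure D2:**
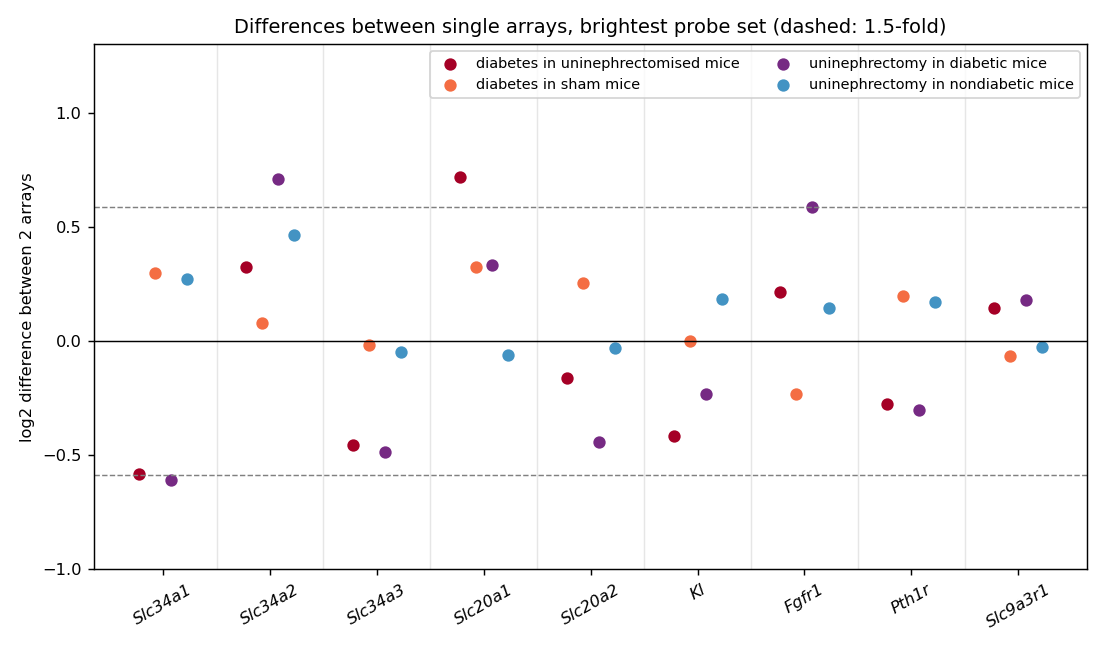
Log2 difference between 2 arrays for the brightest probe set of each gene, in each of the 4 comparisons, with dashed lines at 1.5-fold. Points of the diabetic uninephrectomy array against others (dark red and purple) reach -0.61 for Slc34a1 and 0.72 for Slc20a1, while every point of the other comparisons lies inside the dashed lines.

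Of the 9 members, 1 was at least 1.5-fold different with diabetes in uninephrectomised mice, against 12.5% of all expressed genes. It was Slc20a1, which was higher, as were 6.43% of expressed genes, while 0 members and 6.06% of expressed genes were lower. Slc34a1 was just inside the limit there at 0.667-fold. With diabetes in sham mice 0 of 9 differed by 1.5-fold, against 7.49% of expressed genes (4.36% higher and 3.12% lower). With uninephrectomy in diabetic mice 3 of 9 did so, against 9.36% of expressed genes. The 2 that were higher, against 5.01%, were Slc34a2 and Fgfr1, and the 1 that was lower, against 4.35%, was Slc34a1. The call of Slc34a1 ended with quantile normalisation (-0.57) and median centring (-0.53), and that of Fgfr1 ended with an offset at the 40th percentile (0.53) and turned to -0.17 with probe sets averaged within each gene. With uninephrectomy in nondiabetic mice 0 of 9 did, against 6.67% (3.85% higher and 2.82% lower). These comparisons share arrays, so they do not check each other.

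Tested over both arms, 0 of 9 members passed limma for diabetes, against 2.2% of expressed genes (1.47% higher and 0.732% lower). For uninephrectomy 0 of 9 passed, against 0.509% (0.33% higher and 0.178% lower). At an unadjusted limma p below 0.05 there was 1 member for each factor, Slc20a1 for diabetes and Slc34a2 for uninephrectomy, where the share of expressed genes was 9.48% and 5.68%. The median mean difference of the members was -0.01 with diabetes and -0.02 with uninephrectomy, and that of all expressed genes was -0.00064 and -0.0082.

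**Figure D3:**
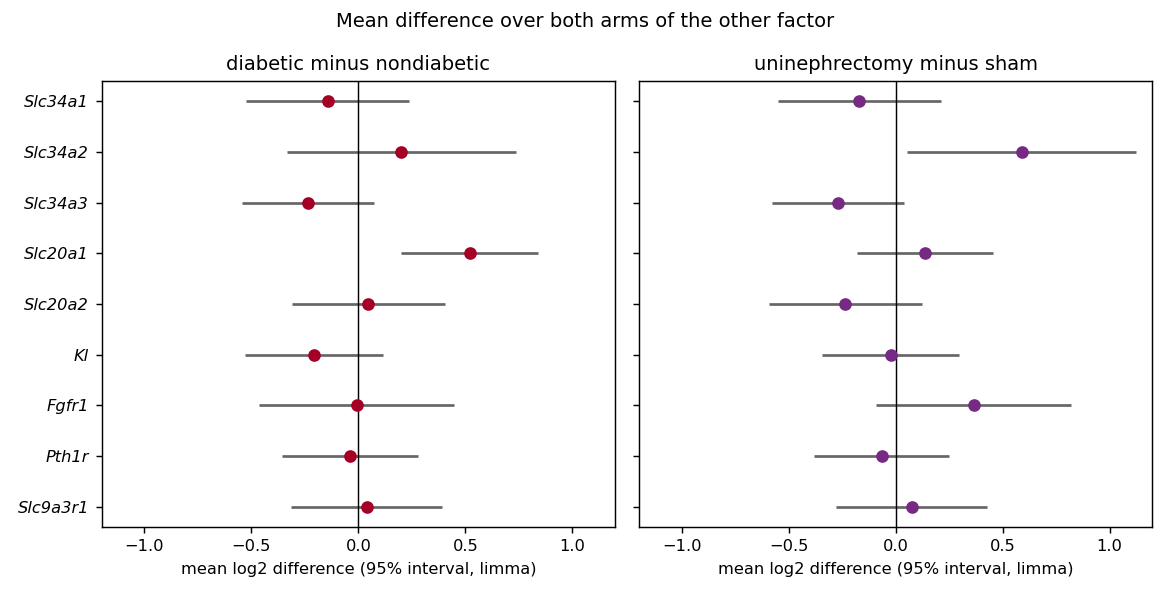
Mean log2 difference of each gene over both arms, with its 95% interval from limma, for diabetic minus nondiabetic (left) and uninephrectomy minus sham (right). The interval of Slc20a1 for diabetes (0.20 to 0.84) and that of Slc34a2 for uninephrectomy (0.05 to 1.12) lie above 0, and neither gene passed after adjustment over all genes.

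On the brightest probe set, all 9 members had their lowest or highest level of the 4 arrays in OVE-uni mice, as did 57.9% of all expressed genes. Slc34a1, Slc34a3, Slc20a2, Kl and Pth1r were lowest there (5 of 9, against 30.2%), and Slc34a2, Slc20a1, Fgfr1 and Slc9a3r1 were highest (4 of 9, against 27.7%). With probe sets averaged within each gene the number was 8. The difference between the arms of diabetes, uninephrectomised minus sham, was -0.88 on the log2 scale for Slc34a1, -0.47 for Pth1r, -0.44 for Slc34a3, -0.42 for Slc20a2 and -0.41 for Kl. It was 0.44 for Fgfr1, 0.39 for Slc20a1, 0.24 for Slc34a2 and 0.21 for Slc9a3r1. A difference of 1.5-fold between the arms was reached by 1 member, Slc34a1, and by 18.4% of all expressed genes. After median centring of each array it was reached by 3, with Slc20a1 at 0.60 and Fgfr1 at 0.65 beside Slc34a1, and by 22% of expressed genes, while the values became -0.26 for Pth1r, -0.23 for Slc34a3, -0.21 for Slc20a2 and -0.20 for Kl. This contrast uses all 4 arrays and leaves no residual, so it has no test.

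Array controls moved with this contrast. The geometric mean of 9 spike-in probe sets added at hybridisation was 5118 in OVE-uni, 6936 in OVE-sham, 6675 in FVB-uni and 5610 in FVB-sham mice, the same order of arrays as Slc34a1, with a difference between the arms of -0.69. For 12 poly-A spike-ins of the labelling step it was -0.36. The signs of RNA quality differed as well, by -0.47 for the 3′ to 5′ ratio of actin, by -0.30 for that of Gapdh and by 0.49 for 18S ribosomal RNA. The actin ratio was 3.38 in OVE-uni, 3.72 in OVE-sham, 3.49 in FVB-uni and 2.78 in FVB-sham mice, so FVB-sham stood lowest. Among the 785 expressed genes at least as bright as Pth1r, the median was -0.16, with -0.50 and 0.21 at the 10th and 90th percentiles. Of the 4 members at that brightness, Slc34a1 lay below that range, Slc9a3r1 at its upper edge and Pth1r and Kl inside it. After quantile normalisation, which equalises the distributions of the arrays, the difference of Slc34a1 was -0.73, and after median centring it was -0.67. The part of array handling and RNA quality in these values was not tested.

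**Figure D4:**
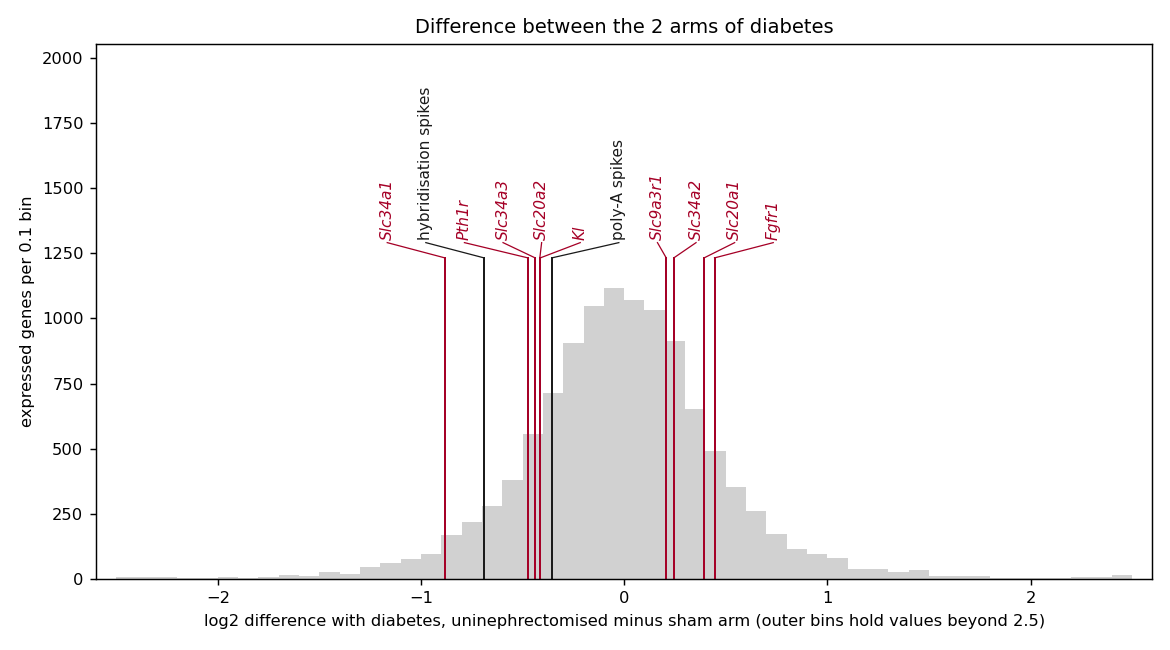
Number of expressed genes by the log2 difference with diabetes, uninephrectomised minus sham arm (grey bars, bins of 0.1), with lines at the 9 genes (red) and at the means of the spike-in controls (black). Slc34a1 (-0.88) lies to the left of the hybridisation spike-ins (-0.69), and the other members lie between -0.47 and 0.44.

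Markers of the proximal tubule, which holds these transporters, were also mostly lowest in OVE-uni mice. Of 12 proximal tubule markers 11 were expressed, and their summed signal was 134608 in OVE-uni, 171660 in OVE-sham, 171612 in FVB-uni and 161637 in FVB-sham mice. The lowest array was OVE-uni for 9 of the 11, against 30.2% of all expressed genes. The median difference of these markers between the arms of diabetes was -0.36, against -0.16 among the 785 genes at least as bright as Pth1r. Slc22a8, an organic anion transporter gene, was the 1 marker of this list that fell with diabetes in limma (-0.72 ± 0.17, SE, adjusted p = 0.0077). Its log2 difference with diabetes was -1.28 in uninephrectomised and -0.17 in sham mice. For the distal convoluted and connecting tubule, which includes the main site of Klotho, 5 of 6 markers were expressed and their summed signal was 29439 in OVE-uni, 32528 in OVE-sham, 40747 in FVB-uni and 29757 in FVB-sham mice. The lowest array was OVE-uni for 3 of the 5, against the same 30.2% of all expressed genes. Without the bright calcium-binding protein gene Calb1, the sum was 9065 in OVE-uni, 11700 in OVE-sham, 17144 in FVB-uni and 13736 in FVB-sham mice, so both diabetic arrays were then below both nondiabetic arrays. Calb1 did not have that order, with 20374 in OVE-uni, 20828 in OVE-sham, 23604 in FVB-uni and 16021 in FVB-sham mice. Neither did Slc8a1, which stayed in the sum, with 2217 in OVE-uni, 2048 in OVE-sham, 4228 in FVB-uni and 2041 in FVB-sham mice. In this list Pvalb, the parvalbumin gene of the early distal convoluted tubule, fell with diabetes (-0.78 ± 0.16, SE, limma adjusted p = 0.000887). Its log2 difference was -1.11 in uninephrectomised and -0.46 in sham mice. The calls of Slc22a8 and Pvalb were lost without the limma trend, where 0 expressed genes passed for diabetes.

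Markers of injury, matrix and macrophages had their highest sums in OVE-uni mice, but Csf1r and Pdgfra were not highest there. The macrophage marker Csf1r had 5182 in OVE-uni, 5929 in OVE-sham, 5093 in FVB-uni and 6558 in FVB-sham mice. The matrix marker Pdgfra had 894 in OVE-uni, 1284 in OVE-sham, 698 in FVB-uni and 1081 in FVB-sham mice. The summed signal of 6 expressed tubular injury markers of 7 was 15702 in OVE-uni, 5725 in OVE-sham, 4580 in FVB-uni and 4397 in FVB-sham mice. That of 6 fibroblast and matrix markers was 16873 in OVE-uni, 7795 in OVE-sham, 4887 in FVB-uni and 5203 in FVB-sham mice, and that of 6 of 7 macrophage markers was 13761 in OVE-uni, 8341 in OVE-sham, 7290 in FVB-uni and 8673 in FVB-sham mice. The 3 expressed adipocyte markers of 6 summed to 13067 in OVE-uni, 25957 in OVE-sham, 5204 in FVB-uni and 14138 in FVB-sham mice. Of these sums Fabp4 made up 9899 in OVE-uni and 5923 in FVB-sham mice. Adipoq and Car3 were lower in OVE-uni (293.5 and 2874) than in FVB-sham mice (817 and 7398). With diabetes 5 injury, 4 matrix, 2 macrophage and 3 adipocyte markers rose in limma, where 1.47% of all expressed genes did. With uninephrectomy 1 injury, 1 matrix and 1 macrophage marker rose, where 0.33% of all expressed genes did. There 2 adipocyte markers fell, where 0.178% did. Without the limma trend 0 expressed genes passed for diabetes and 4 for uninephrectomy. The marker calls are on the mean over both arms. Those that rose with uninephrectomy, Vcam1, Col3a1 and Lyz2, had log2 differences of 2.36, 1.61 and 2.29 in diabetic mice. In nondiabetic mice they had -0.20, 0.13 and -0.19. Cd14, which rose with diabetes, had 2.29 in uninephrectomised and -0.28 in sham mice. No expressed marker of these lists was at 0 on any array. The part of these cell types in the values of the 9 genes was not tested.

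Genes that act around the members were taken from 7 lists of 61 genes, of which 47 were expressed. With diabetes 2 of the 47 rose and 1 fell in limma, where 1.47% and 0.732% of all expressed genes did. With uninephrectomy 0 passed, against 0.509%. The 3 were the vitamin D hydroxylase gene Cyp27b1, the stanniocalcin gene Stc1 and the early response gene Egr1.

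Of 8 genes of vitamin D metabolism and uptake 7 were expressed, 1 rose with diabetes and 0 fell. Cyp27b1, the enzyme that makes active vitamin D and that FGF23 represses and parathyroid hormone induces, had signals of 818 in OVE-uni, 386 in OVE-sham, 139 in FVB-uni and 185 in FVB-sham mice. Both diabetic arrays were above both nondiabetic arrays, and the log2 difference with diabetes was 2.36 in uninephrectomised and 0.96 in sham mice. It rose by 1.66 ± 0.27 with diabetes (SE, limma adjusted p = 3.1e-05), a call that was lost without the limma trend (adjusted p = 0.214), without the expression filter (adjusted p = 0.160) and with probe sets averaged within each gene (adjusted p = 0.149). Cyp24a1, the enzyme that breaks active vitamin D down and that FGF23 induces, had 2005 in OVE-uni, 2582 in OVE-sham, 3820 in FVB-uni and 1047 in FVB-sham mice. Its lowest array was FVB-sham and its highest FVB-uni, so its log2 difference with uninephrectomy was -0.36 in diabetic and 1.84 in nondiabetic mice. The mean of 0.74 ± 0.21 (SE, limma adjusted p = 0.1001) did not pass, although it did so with quantile normalisation (adjusted p = 0.0015), with the filter at the 75th percentile (adjusted p = 0.00045) and with an offset at the 40th percentile (adjusted p = 0.0408). Over the other settings its limma adjusted p ran up to 0.9999. The other probe set of Cyp24a1, just below the expression level, was lowest in OVE-uni mice. It differed with uninephrectomy by -0.93 in diabetic and 0.78 in nondiabetic mice. With probe sets averaged within each gene the mean for uninephrectomy was 0.33. The uptake receptor gene Cubn had a mean of -0.42 ± 0.18 with uninephrectomy (SE, limma adjusted p = 0.641) and passed with quantile normalisation alone (adjusted p = 0.0416).

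Of 8 early response genes of the ERK pathway, which FGF23 activates through Klotho, 6 were expressed, 1 fell with diabetes and 0 rose. Egr1, a transcription factor gene, had signals of 3601 in OVE-uni, 2701 in OVE-sham, 6902 in FVB-uni and 5930 in FVB-sham mice. Both diabetic arrays lay below both nondiabetic arrays, a split that was not counted over all expressed genes and adds no support to the test. Averaged over both arms, Egr1 was lower in diabetic mice by 1.03 on the log2 scale (SE 0.15). This passed limma at an adjusted p of 4.7e-06. That call was lost without the limma trend (adjusted p = 0.207) and with probe sets averaged within each gene (adjusted p = 0.102). Fos had 1338 in OVE-uni, 741 in OVE-sham, 1345 in FVB-uni and 1340 in FVB-sham mice, so OVE-sham alone stood lower. Dusp6, an ERK phosphatase gene, differed by -0.34 ± 0.15 with diabetes on average (SE, limma adjusted p = 0.396). The median over the 6 genes was -0.32 against -0.00064 for all expressed genes. Many signals other than FGF23 also induce these genes.

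Of 10 other phosphate carriers and handling genes, 8 were expressed and 1 passed. Stc1, a hormone gene that acts on renal phosphate transport, had signals of 263 in OVE-uni, 251 in OVE-sham, 91.6 in FVB-uni and 105 in FVB-sham mice and rose by 1.19 ± 0.32 with diabetes (SE, limma adjusted p = 0.0287). Its call was lost without the limma trend (adjusted p = 0.181), without the expression filter (adjusted p = 0.404), with median centring (adjusted p = 0.0930) and with probe sets counted singly (adjusted p = 0.111). Its other probe set, below the expression level, had opposite differences of -0.60 in uninephrectomised and -0.81 in sham mice. Slc17a2, a gene of another phosphate carrier family, had a mean of -0.49 ± 0.26 with uninephrectomy (SE, limma adjusted p = 0.938). Alpl, which encodes tissue alkaline phosphatase, differed by -0.21 ± 0.15 with diabetes on average (SE, limma adjusted p = 0.811).

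**Figure D5:**
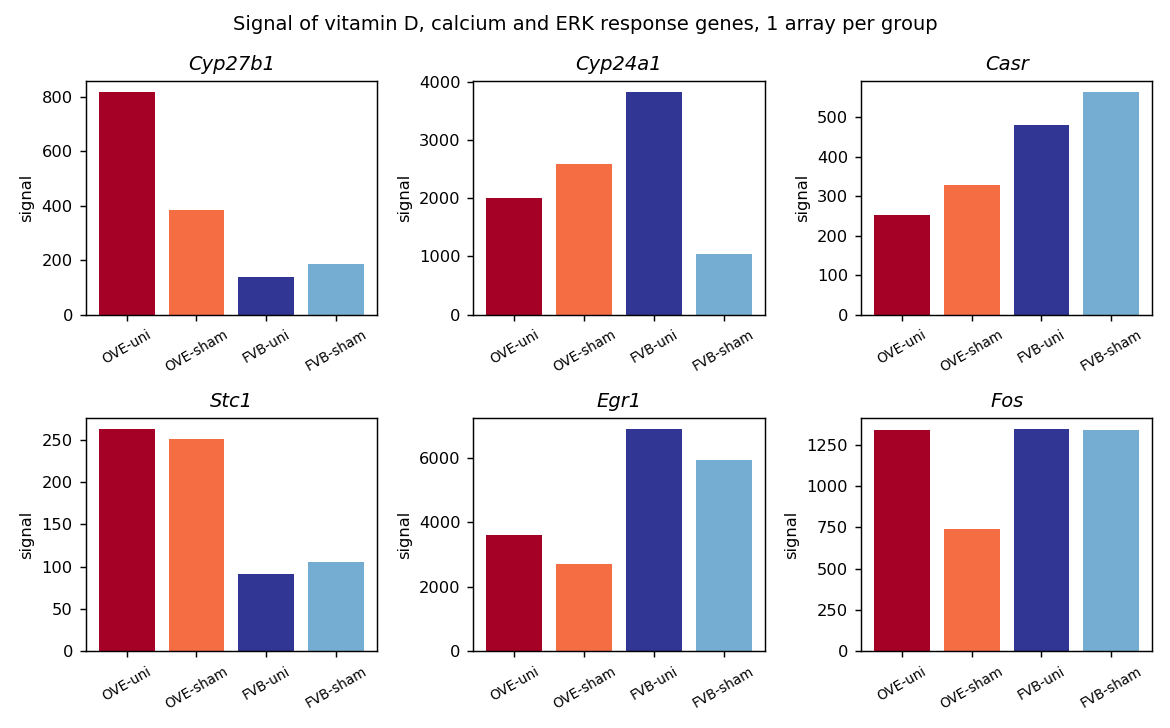
Array signal of the brightest probe set of 6 genes around phosphate and vitamin D control, with 1 array per group and bars starting at 0. Cyp27b1 and Stc1 are higher and Egr1 and Casr lower on both diabetic arrays, whereas Fos is low on the OVE-sham array alone and Cyp24a1 is highest on the FVB-uni array.

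Of 8 genes of the hormones and their processing 3 were expressed and 0 passed. Casr, the calcium-sensing receptor gene, had signals of 254 in OVE-uni, 329 in OVE-sham, 480 in FVB-uni and 564 in FVB-sham mice, with both diabetic arrays below both nondiabetic arrays. Its mean of -0.79 ± 0.23 with diabetes (SE) had a limma adjusted p of 0.0554 and did not pass, although quantile normalisation (adjusted p = 0.0315) and an offset at the 40th percentile (adjusted p = 0.0493) carried it past the threshold. Galnt3 and Fam20c, which modify the FGF23 protein, had means of -0.02 ± 0.15 and -0.02 ± 0.18 with diabetes (SE, limma adjusted p = 0.997 for each). Fgf23 and Pth, whose hormones come from bone and the parathyroid, were not among the expressed genes.

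Among other FGF receptors and Klotho sheddases, 7 of 10 genes were expressed and 0 passed in either direction for either factor. Fgfr4, a receptor gene of the proximal tubule, had signals of 512 in OVE-uni, 729 in OVE-sham, 632 in FVB-uni and 867 in FVB-sham mice, and its mean with uninephrectomy was -0.46 ± 0.19 (SE, limma adjusted p = 0.615). Fgfr3 differed by -0.20 ± 0.17 with diabetes on average (SE, limma adjusted p = 0.887). Bace1, a protease gene, differed by 0.40 ± 0.18 with diabetes on average (SE, limma adjusted p = 0.409).

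Partners of the NHERF scaffold gave 7 expressed genes of 8, and 0 passed. Pdzd3, another PDZ scaffold gene, differed by -0.25 ± 0.15 with diabetes on average (SE, limma adjusted p = 0.704), and the membrane-linker genes Msn and Ezr had 0.31 ± 0.16 (SE, limma adjusted p = 0.538) and 0.15 ± 0.16 (SE, limma adjusted p = 0.945). All 9 genes of parathyroid hormone receptor signalling were expressed and 0 passed. Of these, the G protein gene Gna11 differed by 0.24 ± 0.16 with diabetes on average (SE, limma adjusted p = 0.763), the arrestin gene Arrb2 had 0.26 ± 0.29 (SE, limma adjusted p = 0.954), and Arrb1 had -0.31 ± 0.23 with uninephrectomy (SE, limma adjusted p = 0.9997).

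The genes whose levels over the 4 arrays were most like those of Slc34a1, by the root mean square distance of log2 values centred on each gene's mean, were Thnsl2 (distance 0.022), Nupl2 (0.024) and Hpcal1 (0.036). For Kl they were Impact (0.011), Bdh2 (0.014) and Suox (0.015). With only 4 arrays such likeness is common: 216 expressed genes lay within a distance of 0.1 of Slc34a1 and 988 of Kl.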

How the data were processed

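Kidney RNA from 4 mice per group was pooled before labelling (100 ng of total RNA with a 3' IVT kit and biotin), per the labels' protocols. Values in the deposited table are linear intensity per probe set. The authors had scaled them: after trimming 2% at either end, the mean was 500.003 on each of the arrays. The software and the background correction were not given in the sources used here.

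Symbols came from the platform annotation (34945 of 45037 probe sets with 1 symbol, 932 with several and 9160 with none), updated by Entrez number through RefSeq genes of GRCm38.p6 (34741 matched, 0 changed). The offset of 26.4 is the 20th percentile of all values. A gene took the values of its brightest probe set by mean, and the expression limit is the median over probe sets. Limma 3.58.1 in R 4.3.3 was fitted to all 11206 expressed genes and 4 arrays with diabetes and surgery as terms and a trend in eBayes, with Benjamini-Hochberg adjustment. This fit was tested on simulated data with known changes that were the same in both arms. It recovered 84% of changes of 1 on the log2 scale, and 11 of its 195 calls were unchanged genes. The noise was drawn from the spread that limma had fitted, so the simulation cannot check the calls made on these arrays.

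The members, gene lists and tests were chosen with earlier results of these data known. Named genes are the members and, from each list, the genes that passed, filled up to 3 with the largest mean differences, and the 3 genes most like Slc34a1 and Kl. Other settings tried were median centring, quantile normalisation, no filter or a filter at the 75th percentile, other probe set summaries, offsets of 1 and at the 40th percentile, limma without a trend, an adjusted p below 0.1 and a fold of 2. The array medians lay between 106.8 and 119.3.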

Additional observations from a re-analysis of the deposited data

Results flagged for a closer look

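Slc34a1 had opposite signs in the arms of diabetes, and its difference between them, uninephrectomised minus sham, was -0.88 on the log2 scale. With 1 array per group this difference was not tested.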

How the results depend on the processing

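The count of members that passed limma for diabetes was 0 and became 1, Slc20a1, with the filter at the 75th percentile and with an adjusted p below 0.1. The looser threshold takes in the limma adjusted p of 0.0736 of Slc20a1. The filter left 6957 genes and also changed the prior degrees of freedom of the fit, from 57.9 to infinite. The part of each in the pass of Slc20a1 under the filter was not tested. The count past 1.5-fold with diabetes in sham mice was 0 and became 1 with probe sets counted singly. With diabetes in uninephrectomised mice it was 1, with 2 at an offset of 1 and 0 at a fold of 2. With uninephrectomy in diabetic mice it was 3, with 2 under quantile normalisation and median centring (without Slc34a1) and under averaged probe sets and the offset at the 40th percentile (without Fgfr1), 1 under the filter at the 75th percentile, which removes Slc34a2 and Fgfr1, and 0 at a fold of 2. For the difference between the diabetes arms it was 1, with 3 under median centring and 0 at a fold of 2.

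Some differences changed sign. With probe sets averaged within each gene, the mean difference of Slc20a1 became -0.12 and that of Fgfr1 -0.26 (reported as 0.37) for uninephrectomy, that of Kl 0.011 for uninephrectomy and that of Slc20a2 -0.14 for diabetes. Under the same setting those of Bace1 (-0.058, reported as 0.40) and Fgfr3 (0.11) for diabetes and of Fam20c (0.034) for uninephrectomy changed sign, and Fgfr1 with uninephrectomy in diabetic mice became -0.17 (reported as 0.59) and in nondiabetic mice -0.34 (reported as 0.14). Kl (0.19) and Slc9a3r1 (0.064) with diabetes in sham mice, and Slc20a2 (0.15) and Slc9a3r1 (0.084) with uninephrectomy in nondiabetic mice, changed sign there too. Median centring turned Fgfr1 to 0.0071 for diabetes. The differences of Slc34a2 with diabetes in sham mice (-0.01 with centring), of Slc34a3 with diabetes in sham mice (0.0031 with quantile normalisation) and of Slc20a2 with uninephrectomy in nondiabetic mice (0.012 with quantile normalisation) also changed sign. Centring moved the median of all expressed genes by between -0.13 and 0.12 in the 4 comparisons.

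Over all expressed genes 247 passed for diabetes and 57 for uninephrectomy. Across the alternatives these numbers ran from 0 to 314 and from 1 to 116, with 0 and 4 without the limma trend (907 and 594 at an unadjusted p below 0.05). The alternatives were applied to single arms and to genes outside the 9 members after seeing the data. No paired analysis was possible because each group has 1 array and no replicate numbers, and leaving out an array would leave no residual. Limits: pooled mice, 1 array per group and spike-in controls that differed between arrays.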
